A study of Homo sapiens with 6 samples.

Results

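The genes described here are 33 genes of cholesterol and fatty acid synthesis, out of 60623 genes in the deposited table. They were chosen by name from knowledge of the pathways and matched to the gene names of the table, in which all 33 were found. RNA was measured in LX2 cells, an immortalised human hepatic stellate cell line of wild-type genotype used as a culture model of the collagen-producing cells of the liver. The siSHMT2 group (3 libraries) was transfected with an siRNA against SHMT2, the mitochondrial enzyme that makes glycine from serine and loads the freed carbon onto folate. The siNC group (3 libraries) was transfected with a control siRNA. Both groups were grown in medium with 2% fetal bovine serum and collected after 36 h, so every library comes from transfected cells of 1 line. Whether the replicates are separate cultures is not stated in the labels, and the p-values therefore reflect only how far these samples lie apart, which may be technical. The sequences of the siRNAs were not analysed here.

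Cells build cholesterol from acetyl-CoA through mevalonate, isoprenoid units, squalene and lanosterol, and they build fatty acids from the same acetyl-CoA through malonyl-CoA. The transcription factors SREBF1 and SREBF2 drive most of these genes. When membrane sterol is plentiful, the INSIG proteins hold the escort protein SCAP, and the factors with it, in the endoplasmic reticulum. Stellate cells are known for storing retinyl esters in lipid droplets, which they lose as they become collagen-producing cells.

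SHMT2, the target of the siRNA, had 2.25, 2.10 and 2.42 FPKM in the siSHMT2 libraries, against 40.8, 56.3 and 45.1 FPKM in the siNC libraries (FPKM, fragments scaled by gene length and by library size). Knocked-down cells thus kept 4.77% of the siNC level on average, and SHMT2 fell by 3.88 on the log2(FPKM + 1) scale (SE 0.132, limma adjusted p = 2.08e-05). An exact two-sided permutation test of SHMT2 over the 6 libraries gave p = 0.1, the smallest that 3 against 3 libraries allow. Reads recovered from the FPKM summed to between 14722344 and 15669139 per library. The second siNC library stood apart, with 18723 genes above 0 against 20559 to 21136 in the others and the lowest ratio of scaling total to reads (0.957). Of 12 stellate cell markers, 9 averaged at least 1 FPKM, COL1A1 among them, while LRAT, the retinol-esterifying enzyme of resting stellate cells, was listed at 0 in all 6 libraries. ACTA2 and DES were also below that level and not tested. ACTA2 averaged 0.782 FPKM in siSHMT2 cells and 0.427 FPKM in siNC cells, and DES 0.0744 and 0.124 FPKM. Summed over the 12, the markers stood at 1313 to 1530 FPKM in siSHMT2 libraries and 1711 to 2599 FPKM in siNC libraries, without overlap. Most of the sum was TIMP1 and VIM. VIM fell by 0.71 on the log2 scale (limma adjusted p = 0.0191), and TIMP1 had a log2 fold change of -0.53 that was not called. COL1A1 and PDGFRB were at -0.10 and -0.20, uncalled, and COL1A2, LOX, COL3A1, COL5A1 and TAGLN lay between 0.0036 and 0.22, also uncalled. None of 5 hepatocyte, 3 endothelial or 2 epithelial markers averaged 1 FPKM, and the hepatocyte markers summed to 0.299 to 0.454 FPKM in siSHMT2 libraries and 0.330 to 1.35 FPKM in siNC libraries. The 3 blood cell markers summed to 13.4 to 15.1 FPKM in siSHMT2 libraries and 14.2 to 19.0 FPKM in siNC libraries, nearly all of it CD14. The part of these levels in the results below was not tested.

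Of the 33 genes, 4 were called lower in siSHMT2 than in siNC cells, 1 was called higher and 25 did not pass the test. Another 3 were too low to test. The genes that fell were ACSL4, INSIG1, MSMO1 and IDI1, and the gene that rose was SCD. They sit at separate steps of the pathways, and every other tested gene of the 33 missed the threshold. LBR, a sterol C14 reductase outside the 33, was also called lower and is described below. A gene was tested where its FPKM averaged at least 1 over the 6 libraries, and called where its limma p, adjusted by Benjamini-Hochberg over all 10865 genes tested, was at most 0.05. Among the 30 genes that passed this filter, 5 were called (16.7%), against 15.9% of all genes tested. In the lower direction the share was 13.3% of the 30, against 9.85% of all genes, and in the higher direction 3.33%, against 6.07%. These shares lie close to the background of the whole table. Leaving out siSHMT2 replicate 1 or 3 gave 2 genes called lower, and leaving out siNC replicate 2 gave 7. The genes called lower among all tested moved as well, to 498 or 547 and to 1132, from 1070 with all 6 libraries. In RNA from a bulk culture, fewer cells of a kind and less RNA per cell cannot be told apart. A p that missed the threshold does not show that a gene was unchanged.

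The median log2 fold change (siSHMT2 over siNC) of the 30 genes was -0.06, beside 0.02 for all genes tested, with 12 values above 0 and 18 below it. The siSHMT2 libraries lay wholly below the siNC libraries for 9 genes and wholly above them for 1. These 10 genes without overlap were 33.3% of the 30, and 36.4% of all genes tested had no overlap. The standard error of the log2 fold change had a median of 0.135 and ran between 0.0975 and 0.234. Genes uncalled here spanned log2 fold changes of -0.48 (SC5D) to 0.40 (PMVK). Over all genes tested, 659 were called higher and 1070 lower. The split between directions depended on scaling, with 686 higher and 620 lower on values rescaled to TPM, 796 and 767 on FPKM recomputed from the read sums, and 914 and 853 with limma voom on recovered reads.

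**Figure D1:**
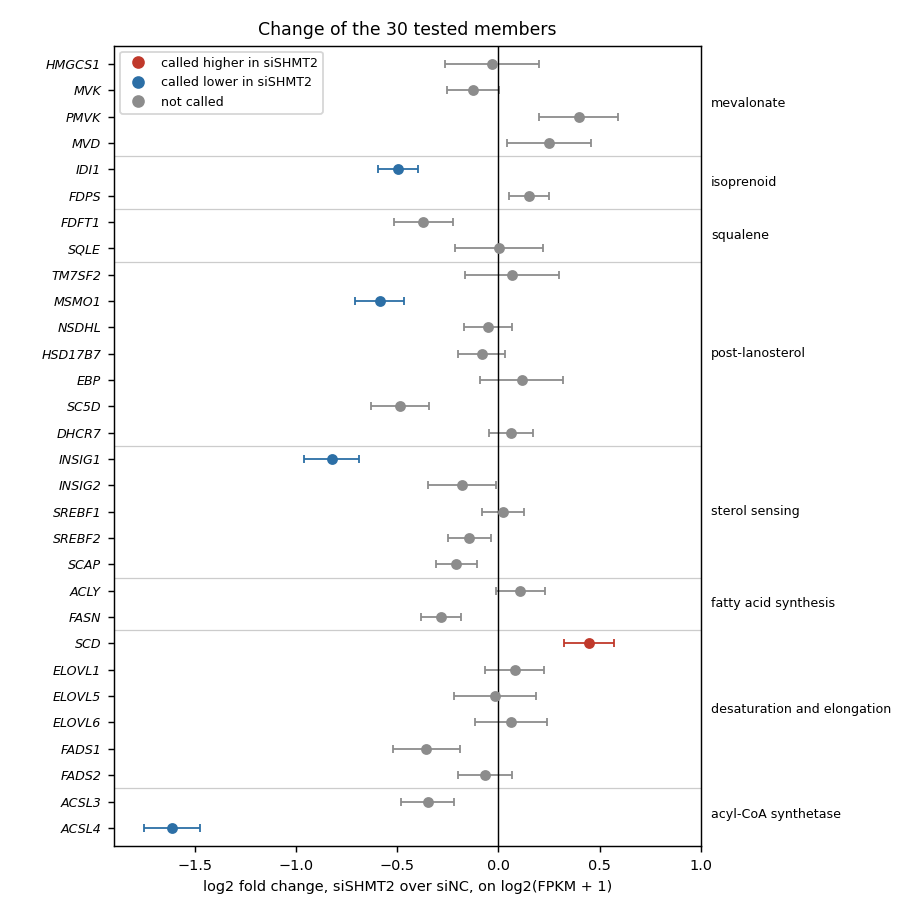
Log2 fold change of each of the 30 tested genes (siSHMT2 over siNC, on log2(FPKM + 1)), grouped by role along the vertical axis, with bars of 1 standard error. Genes called lower or higher by limma are coloured, and ACSL4 lies farthest from 0, at -1.61.

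Acyl-CoA synthetases attach fatty acids to coenzyme A so that they can be built into lipids. ACSL4 and ACSL3, the acyl-CoA synthetases among the 33 genes, were lower in all siSHMT2 libraries than in any siNC library. Only ACSL4 passed the test. Outside the 33, the groups overlapped for ACSL1, which was not called (log2 fold change -0.03, limma adjusted p = 0.877), and ACSL5 was too low to test. ACSL4, which favours arachidonic acid and other long polyunsaturated fatty acids and is known for its role in ferroptosis, showed the largest change of the 30 genes. ACSL4 (chromosome X, 109624244 to 109733403 in the table, minus strand) had 4.15, 5.45 and 4.54 FPKM in siSHMT2 libraries, against 18.3, 17.7 and 13.6 FPKM in siNC libraries. All 3 siSHMT2 libraries lay far below the lowest siNC library. The mean was 4.71 ± 0.662 FPKM in siSHMT2 cells and 16.5 ± 2.53 FPKM in siNC cells (SD, n = 3 each), so that siSHMT2 cells held 28.5% of the siNC level. ACSL4 fell by 1.61 on the log2 scale (SE 0.140, limma adjusted p = 0.00046). These values rested on 436, 591 and 470 recovered reads in siSHMT2 libraries and 2094, 1674 and 1403 in siNC libraries. ACSL4 was called in all 14 alternatives, with adjusted p between 3.47e-05 and 0.00592. KCNE5, a potassium channel subunit gene that overlaps ACSL4 on the same strand, averaged 1.25 FPKM over the 6 libraries and had a log2 fold change of -0.18 (limma adjusted p = 0.461).

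ACSL3, which activates fatty acids for lipid droplet growth, had 7.62, 8.16 and 6.36 FPKM in siSHMT2 libraries and 11.0, 9.74 and 8.28 FPKM in siNC libraries. The groups lay next to each other without overlap, and its log2 difference of -0.35 (SE 0.132) missed the threshold (limma adjusted p = 0.12). The difference between ACSL4 and ACSL3 in their response was not tested.

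**Figure D2:**
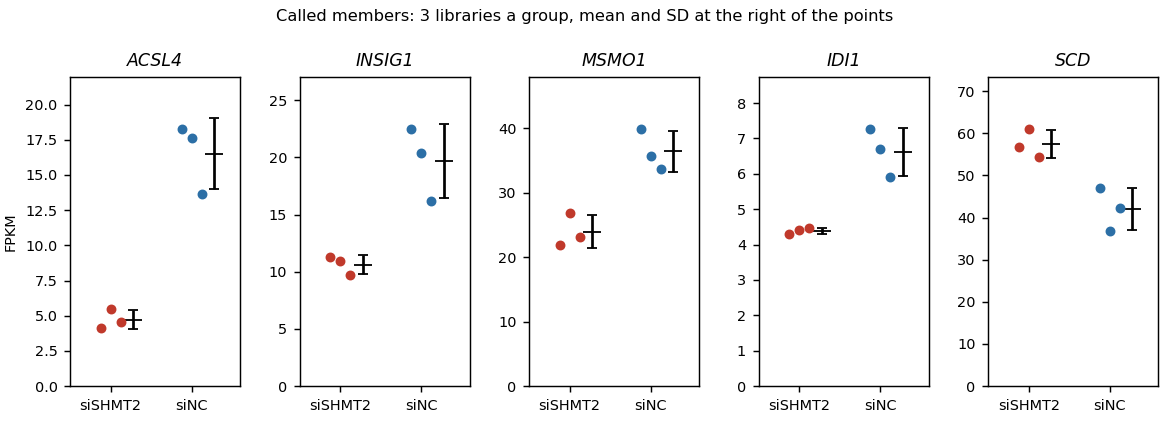
FPKM of the 5 called genes in each library, with siSHMT2 libraries left of siNC libraries, the mean and SD of each group beside its points, and each panel on its own axis from 0. No panel shows an overlap, and SCD alone has its siSHMT2 libraries on top, at 54.4 to 61.1 FPKM.

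The 3′ untranslated regions of these genes were read for a pair of words of 7 bases, GACTTTA and ACTTTAA. The words came from earlier work on the fold changes of these same libraries, so their counts are a description and support nothing by themselves. In the longest 3′ untranslated region of GENCODE release 29, either word occurred in 24.4% of 9449 tested protein-coding genes. It occurred in 57.4% of those called lower, 10.5% of those called higher and 21.5% of those not called. Of the 30 tested genes here, 8 held either word (26.7%), and these were ACSL4, MSMO1, IDI1, SC5D, FDFT1, INSIG2, NSDHL and ELOVL6. The group includes 3 of the 4 genes called lower and neither INSIG1 nor SCD. The sites of the called genes are shown because those transcripts fell, and that of SC5D because both words overlap in it. Each is given 5′ to 3′ on the gene's strand, with the word in capitals.
ACSL4 first site: ttgtccggtttACTTTAActtagttttgca
ACSL4 second site: actaaagttgtACTTTAAaaatttactaca
MSMO1: cggcctttttaACTTTAAacatgttttaga
IDI1: tatacactgatACTTTAAaacttgtgtgga
SC5D: gtgaacaccagGACTTTAAtcttatgctta
In GRCh38 the ACSL4 windows lie at chrX:109643848-109643877 and chrX:109641814-109641843 on the minus strand. That of MSMO1 is chr4:165342652-165342681 on the plus strand, that of IDI1 chr10:1041022-1041051 on the minus strand, and that of SC5D chr11:121307693-121307722 on the plus strand. All 5 lie within 1 exon each. A match is not evidence of a functional site.

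Because the words came from the fold changes of these same libraries, the split by word is a description only. The 8 genes with a word had a median log2 fold change of -0.43, with 3 called lower (37.5%) and 0 called higher. Over all tested protein-coding genes with a word the median was -0.13, with 23.9% called lower and 2.68% called higher. The 22 genes here without a word had a median of -0.01, with 1 called lower (4.55%) and 1 called higher. Over all genes without a word the median was 0.06, with 5.76% called lower and 7.41% called higher. ELOVL6 held 2 words and had a log2 fold change of 0.06, and NSDHL held 1 and had -0.05. The regions with a word also had a median of 36.0% G and C and 1460 bases, against 53.1% and 931.5 bases in those without. The part of length and base composition in this difference was not tested.

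**Figure D3:**
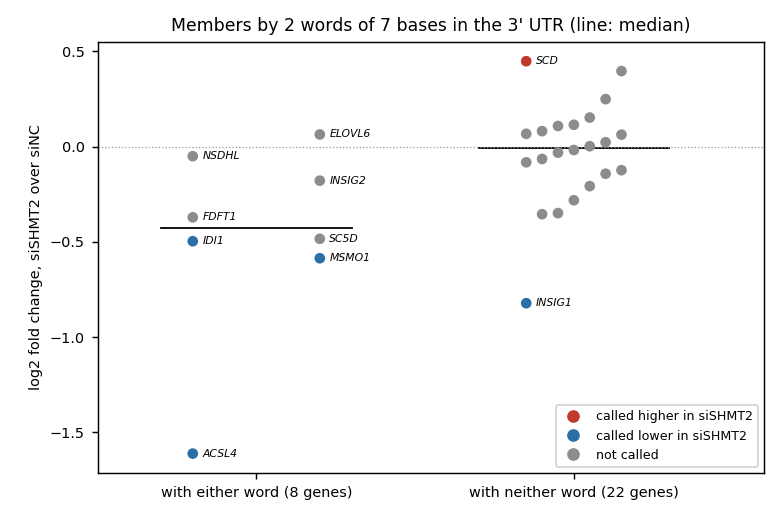
Log2 fold change (siSHMT2 over siNC) of the 30 tested genes, split by whether the longest 3′ untranslated region holds either of the 2 words, with a line at each median. The 8 genes with a word have a median of -0.43 and the 22 without one a median of -0.01, and INSIG1 is the called lower gene without a word. The words came from the fold changes of these same libraries, so the gap between the medians supports nothing by itself.

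Among the sterol-sensing genes, 1 of 5 fell and 0 rose. INSIG1, which retains SCAP in the endoplasmic reticulum and is itself a target of the SREBF factors, had 11.3, 10.9 and 9.72 FPKM in siSHMT2 libraries, against 22.5, 20.4 and 16.2 FPKM in siNC libraries. Its siSHMT2 libraries all lay below the lowest siNC library. The INSIG1 mean (chromosome 7, 155297776 to 155310235) was 10.6 ± 0.806 FPKM in siSHMT2 cells and 19.7 ± 3.23 FPKM in siNC cells (SD, n = 3 each), or 53.9% of the siNC level. INSIG1 fell by 0.82 on the log2 scale (SE 0.136, limma adjusted p = 0.00657) and was called in all 14 alternatives, with log2 fold changes between -0.95 and -0.59 and adjusted p between 0.00223 and 0.0353.

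INSIG2, the second retention protein, had 3.28, 4.12 and 3.49 FPKM in siSHMT2 libraries and 5.25, 3.06 and 4.63 FPKM in siNC libraries. These groups overlapped, with the second siNC library lowest of all 6, and the log2 fold change was -0.18, with SE 0.168 and a limma adjusted p of 0.524. SREBF2, the factor for cholesterol synthesis, had 30.5, 30.6 and 29.7 FPKM in siSHMT2 libraries and 31.5, 37.0 and 32.3 FPKM in siNC libraries. SCAP had 16.9, 17.0 and 18.7 FPKM in siSHMT2 libraries and 18.8, 21.7 and 20.6 FPKM in siNC libraries. For SREBF2 and SCAP every siSHMT2 library lay below every siNC library, by small margins, and the log2 fold changes of -0.14 and -0.21 were not called (limma adjusted p = 0.414 and 0.219). SREBF1, the factor for fatty acid synthesis, averaged 7.27 ± 0.446 FPKM in siSHMT2 cells and 7.15 ± 0.720 FPKM in siNC cells (SD, n = 3 each). The antisense gene SREBF2-AS1 averaged 6.18 FPKM, and without a statement on strand use its reads cannot be told apart from those of SREBF2.

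The early mevalonate steps held no called gene, with 4 tested and a median log2 fold change of 0.11. HMGCS1, which makes HMG-CoA, had 5.03, 8.02 and 5.51 FPKM in siSHMT2 libraries and 9.19, 5.26 and 4.92 FPKM in siNC libraries. In each group 1 library stood above the other two, and the log2 fold change was -0.03 with the largest standard error of the 30 genes (0.234). PMVK, the phosphomevalonate kinase, had 26.6, 25.9 and 33.3 FPKM in siSHMT2 libraries and 16.0, 22.0 and 27.5 FPKM in siNC libraries. The groups overlapped through the third siNC library, and the log2 fold change of 0.40 (SE 0.195) had a limma adjusted p of 0.22. MVD, which makes isopentenyl diphosphate, had 38.1, 33.9 and 42.3 FPKM in siSHMT2 libraries and 23.4, 42.8 and 31.9 FPKM in siNC libraries. For MVD the siNC libraries enclosed the whole siSHMT2 range. MVK, the mevalonate kinase, averaged 16.1 ± 1.48 FPKM in siSHMT2 cells and 17.7 ± 2.55 FPKM in siNC cells, a log2 fold change of -0.12 (SD, n = 3 each).

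In the isoprenoid step, IDI1 fell and FDPS was not called. IDI1, which interconverts the isoprenoid building blocks, had 4.31, 4.40 and 4.47 FPKM in siSHMT2 libraries, against 7.27, 6.69 and 5.92 FPKM in siNC libraries. The siSHMT2 libraries were tightly grouped and lay below all siNC libraries. The mean of IDI1 (chromosome 10, 1039152 to 1049170, minus strand) was 4.39 ± 0.0814 FPKM in siSHMT2 cells and 6.63 ± 0.678 FPKM in siNC cells (SD, n = 3 each), or 66.3% of the siNC level. It fell by 0.50 on the log2 scale (SE 0.0987, limma adjusted p = 0.0142). IDI1 was called in 8 of 14 alternatives, with adjusted p between 0.00255 and 0.109. Without siSHMT2 replicate 1, 2 or 3 its adjusted p was 0.0758, 0.06 or 0.0584, on TPM 0.109, on FPKM from read sums 0.0572 and with limma voom 0.0575. FDPS, the farnesyl diphosphate synthase downstream of IDI1, averaged 17.0 ± 1.09 FPKM in siSHMT2 cells and 15.2 ± 0.718 FPKM in siNC cells, with a log2 fold change of 0.15 (SD, n = 3 each). IDI2-AS1, which overlaps IDI1 on the opposite strand, was listed at 0 in all libraries.

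At the squalene steps, FDFT1, which joins farnesyl units into squalene, had 2.50, 2.20 and 1.97 FPKM in siSHMT2 libraries and 3.93, 2.47 and 3.22 FPKM in siNC libraries. The groups overlapped only at the second siNC library, and the log2 fold change of -0.37 (SE 0.145) had a limma adjusted p of 0.131. SQLE, the squalene epoxidase, had 9.82, 10.5 and 8.62 FPKM in siSHMT2 libraries and 13.3, 6.49 and 10.2 FPKM in siNC libraries. Its siNC libraries lay on both sides of the siSHMT2 range, and the log2 fold change was 0.00 (SE 0.218).

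Of the 8 enzymes that turn lanosterol into cholesterol, 7 were tested and 1 fell. MSMO1, the C4-methylsterol oxidase, had 21.9, 26.8 and 23.0 FPKM in siSHMT2 libraries, against 39.9, 35.6 and 33.6 FPKM in siNC libraries. The highest siSHMT2 library stood below the lowest siNC library. Its mean (chromosome 4, 165327667 to 165343164) was 23.9 ± 2.55 FPKM in siSHMT2 cells and 36.4 ± 3.20 FPKM in siNC cells (SD, n = 3 each), or 65.8% of the siNC level. MSMO1 fell by 0.59 on the log2 scale (SE 0.120, limma adjusted p = 0.016) and was called in 9 of 14 alternatives, with adjusted p between 0.00154 and 0.0946. Without siSHMT2 replicate 1 or 3 its adjusted p was 0.0932 or 0.0771, and on TPM or on FPKM from read sums it was 0.0946 or 0.051.

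NSDHL and HSD17B7 act with MSMO1 in removing the methyl groups at C4, and neither was called. NSDHL averaged 64.1 ± 3.93 FPKM in siSHMT2 cells and 66.5 ± 5.85 FPKM in siNC cells, and HSD17B7 averaged 3.95 ± 0.117 FPKM in siSHMT2 cells and 4.27 ± 0.712 FPKM in siNC cells (SD, n = 3 each). SC5D, the sterol C5-desaturase, was the lowest of the 30 genes and had 1.15, 1.06 and 1.07 FPKM in siSHMT2 libraries against 2.55, 1.58 and 1.74 FPKM in siNC libraries. The SC5D groups did not overlap, yet the log2 fold change of -0.48 (SE 0.143) had a limma adjusted p of 0.0582. The log2(FPKM + 1) scale understates changes at such low values. Without siNC replicate 2, SC5D, FDFT1 and FADS1 were called lower as well.

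DHCR7, the final reductase of the pathway through 7-dehydrocholesterol, averaged 66.7 ± 2.33 FPKM in siSHMT2 cells and 63.8 ± 3.85 FPKM in siNC cells (SD, n = 3 each). The antisense gene AP002387.2 overlaps DHCR7 and averaged 13.3 FPKM. EBP, the sterol isomerase, had 50.8, 48.2 and 61.9 FPKM in siSHMT2 libraries and 36.9, 65.2 and 49.3 FPKM in siNC libraries, and the siNC libraries enclosed the siSHMT2 range. TM7SF2, a C14 sterol reductase, likewise had 11.1, 8.43 and 12.6 FPKM in siSHMT2 libraries inside the siNC range of 6.82 to 13.1 FPKM. It shares part of its locus with VPS51 on the same strand, which averaged 21.9 FPKM.

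**Figure D4:**
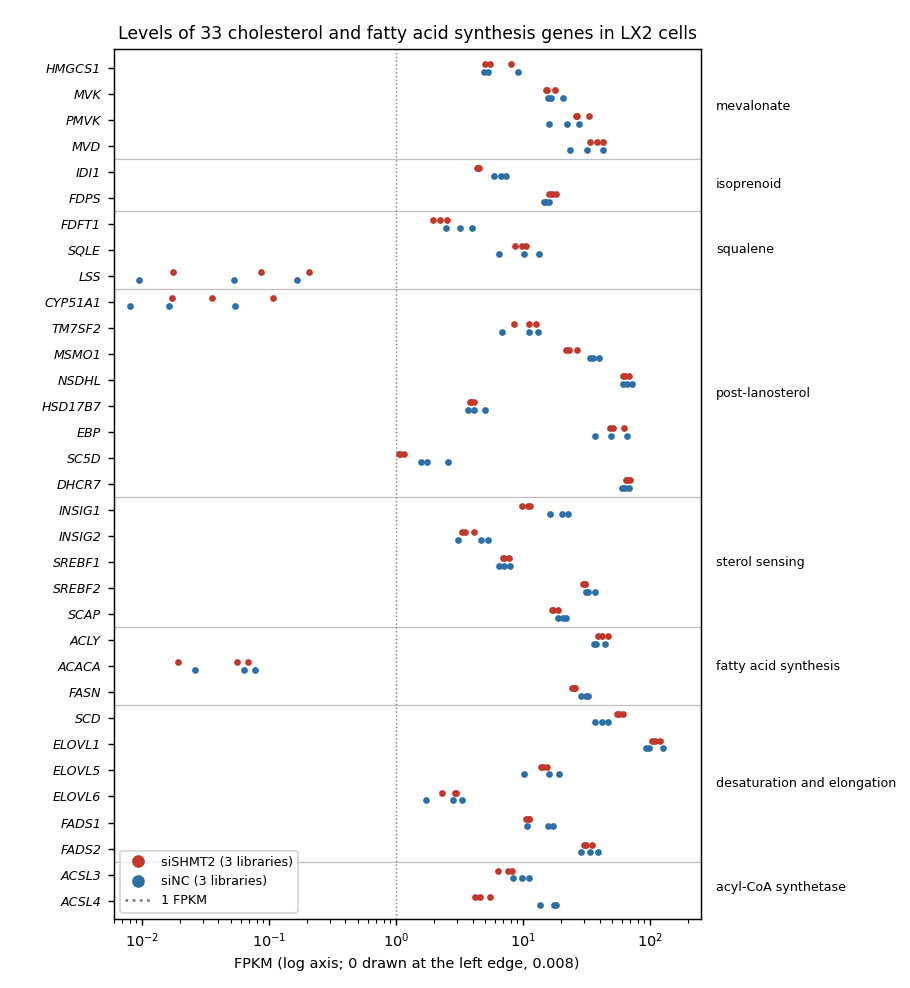
FPKM of all 33 genes in each library on a logarithmic axis, grouped by role, with siSHMT2 and siNC libraries in separate colours and values of 0 drawn at the left edge. ELOVL1 is highest, averaging 108 FPKM over the 6 libraries, SC5D is the lowest tested gene at 1.53 FPKM, and LSS, ACACA and CYP51A1 lie well below the filter of 1 FPKM.

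Fatty acid synthesis proper held no called gene. FASN, the fatty acid synthase, had 25.4, 24.5 and 25.2 FPKM in siSHMT2 libraries, against 31.4, 32.3 and 28.4 FPKM in siNC libraries. No FASN value of siSHMT2 cells reached the lowest siNC library, but the log2 fold change of -0.28 (SE 0.0995) had a limma adjusted p of 0.098. ACLY, the citrate lyase that supplies acetyl-CoA, averaged 42.6 ± 3.77 FPKM in siSHMT2 cells and 39.5 ± 4.13 FPKM in siNC cells (SD, n = 3 each), with overlapping libraries and a log2 fold change of 0.11. FASN, FDFT1, SC5D and ACSL3 were the 4 uncalled genes with an unadjusted p under 0.05. With the called genes, 9 of the 30 tested genes (30%) were under it, against 30.3% of all genes tested.

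Of the 6 desaturases and elongases, 1 rose and 0 fell. SCD, which puts the first double bond into stearate and palmitate, had 56.8, 61.1 and 54.4 FPKM in siSHMT2 libraries, against 46.9, 36.9 and 42.2 FPKM in siNC libraries. All siSHMT2 libraries stood above the highest siNC library. The mean of SCD (chromosome 10, 100347233 to 100364826) was 57.4 ± 3.37 FPKM in siSHMT2 cells and 42.0 ± 5.00 FPKM in siNC cells (SD, n = 3 each), or 137% of the siNC level. SCD rose by 0.45 on the log2 scale (SE 0.123), and its limma adjusted p of 0.0461 lay close to the threshold. It was called in 5 of 14 alternatives, with adjusted p between 0.00293 and 0.168. Without siSHMT2 replicate 1, 2 or 3 the adjusted p was 0.16, 0.168 or 0.118, and without siNC replicate 2 or 3 it was 0.0651 or 0.0959, with the change positive throughout. The processed pseudogene SCDP1 was listed at 0.

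FADS1 and FADS2, the front-end desaturases that make polyunsaturated fatty acids, lie beside each other on opposite strands of chromosome 11 and overlap in the table. FADS1 had 11.2, 11.2 and 10.5 FPKM in siSHMT2 libraries and 15.6, 10.7 and 17.2 FPKM in siNC libraries. The second siNC library lay within the siSHMT2 range and the other two above it, and the log2 fold change of -0.35 (SE 0.164) had a limma adjusted p of 0.195. FADS2 averaged 32.2 ± 2.35 FPKM in siSHMT2 cells and 33.9 ± 5.12 FPKM in siNC cells (SD, n = 3 each). It overlaps FEN1 on the same strand, which averaged 129 FPKM, so that a share of the FADS2 reads may be uncertain. ELOVL1, which extends very long saturated chains, had 110.2, 104.3 and 118.6 FPKM in siSHMT2 libraries and 98.5, 92.7 and 126 FPKM in siNC libraries, the highest level of the 33 genes. ELOVL5, an elongase of polyunsaturated fatty acids, had 13.7, 15.4 and 14.3 FPKM in siSHMT2 libraries inside a siNC range of 10.2 to 19.1 FPKM. ELOVL6, which extends palmitate, had 2.92, 2.97 and 2.31 FPKM in siSHMT2 libraries inside a siNC range of 1.73 to 3.33 FPKM. For each of these elongases the siNC libraries spread wider than the siSHMT2 libraries.

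That spread was general. The coefficient of variation was larger in siNC than in siSHMT2 cells for 28 of the 30 genes, with medians of 7.45% in siSHMT2 cells and 15.9% in siNC cells. Over all 10865 genes it was larger in siNC cells for 8568, with medians of 8.92% in siSHMT2 cells and 16.2% in siNC cells. MSMO1 and FDPS were the exceptions among the 30. When limma weighted each library by how closely it followed its group, the weights were 4.94, 0.881 and 1.07 for the siSHMT2 libraries and 0.305, 0.263 and 2.68 for the siNC libraries. The first and second siNC libraries thus had the lowest weights. With these weights, 9 of the 33 genes were called lower and SCD was called higher. Among all 10865 genes, 1976 were then called lower and 1827 higher, so calls became more frequent throughout.

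The cyclase LSS, the lanosterol demethylase CYP51A1 and the acetyl-CoA carboxylase ACACA were near 0 in every library. LSS, which closes the sterol ring, had 10, 25 and 2 recovered reads in siSHMT2 libraries and 21, 1 and 6 in siNC libraries. ACACA, which makes malonyl-CoA, had 4, 12 and 14 recovered reads in siSHMT2 libraries and 6, 12 and 16 in siNC libraries. CYP51A1 had 2, 1 and 6 in siSHMT2 libraries and 1, 0 and 3 in siNC libraries. No direction can be read from such counts. In the table CYP51A1 overlaps AC000120.2 and AC000120.3 on the same strand, which were listed at 0, and its processed pseudogenes CYP51A1P2 and CYP51A1P1 averaged 0.229 and 0.153 FPKM. Whether the counting method lowered these 3 genes was not tested.

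Promoter windows of RefSeq (GRCh38.p14, 250 bases before to 50 after the start of a gene) were matched for 30 of the 33 genes. These are not the same 30 as those tested, since LSS, CYP51A1 and ACACA, too low to test, are among them. All windows were searched on both strands. Some genes had more than 1 window, and a gene was counted where any of its windows held a match. A sterol regulatory element written as TCACNCCAC was found in 1 of 30 (3.33%), against 1.40% of 7930 tested genes, and that gene was SREBF2. An E-box, CACGTG, was found in 5 of 30 (16.7%), against 13.0% of tested genes, and the 5 were INSIG1, LSS, SC5D, SCAP and ELOVL5. A CCAAT box, CCAAT, was found in 22 of 30 (73.3%), against 43.2% of tested genes and 39.7% of all 27305 genes with a window. MVK and NSDHL held 5 CCAAT matches in 1 window each, MSMO1 held 4 and SCD held 2, while ACSL4 held 0. Upstream stretches of SREBF2, MSMO1 and SCD are shown for the factor gene with the sterol element and for a gene that fell and the gene that rose, both with CCAAT boxes. Matches are in capitals, the sterol element in SREBF2 and CCAAT or its reverse complement ATTGG in the others.
SREBF2: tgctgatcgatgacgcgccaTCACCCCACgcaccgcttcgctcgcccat
MSMO1: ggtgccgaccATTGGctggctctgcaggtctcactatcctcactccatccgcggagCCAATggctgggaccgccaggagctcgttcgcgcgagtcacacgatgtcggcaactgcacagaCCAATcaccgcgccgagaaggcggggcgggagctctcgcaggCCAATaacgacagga
SCD: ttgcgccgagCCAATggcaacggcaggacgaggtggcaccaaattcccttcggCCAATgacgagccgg
All 3 are on the plus strand, at chr22:41832952-41833000 for SREBF2, chr4:165327474-165327649 for MSMO1 and chr10:100346994-100347061 for SCD. CCAAT boxes were thus in the windows of called and uncalled genes alike, in both directions. A missing match says only that these letters are not in the window.

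Other genes of sterol synthesis, of sterol uptake, transport and efflux, and of fatty acid metabolism were set beside the 33. The list of other sterol synthesis genes had 1 called of 6 tested, which fell, and a median log2 fold change of -0.12. LBR, a sterol C14 reductase of the nuclear envelope, had 3.70, 4.26 and 3.49 FPKM in siSHMT2 libraries, against 9.21, 7.92 and 7.71 FPKM in siNC libraries. It fell by 0.95 on the log2 scale (SE 0.108, limma adjusted p = 0.0015), without overlap between the groups. LBR catalyses the same reduction as TM7SF2, which was not called (log2 fold change 0.07, SE 0.230). Sterol uptake, transport and efflux had 0 called of 11 tested by limma, with 2 at an unadjusted p under 0.05 and a median of -0.07. The other fatty acid genes had 0 called of 16 tested by limma, again with 2 at an unadjusted p under 0.05, and a median of 0.04. The share at that unadjusted p was 50% of the other sterol synthesis genes (3 of 6), against 30.3% of all genes tested. It was 18.2% of the uptake, transport and efflux genes and 12.5% of the other fatty acid genes. Of all genes tested, 15.9% were called.

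**Figure D5:**
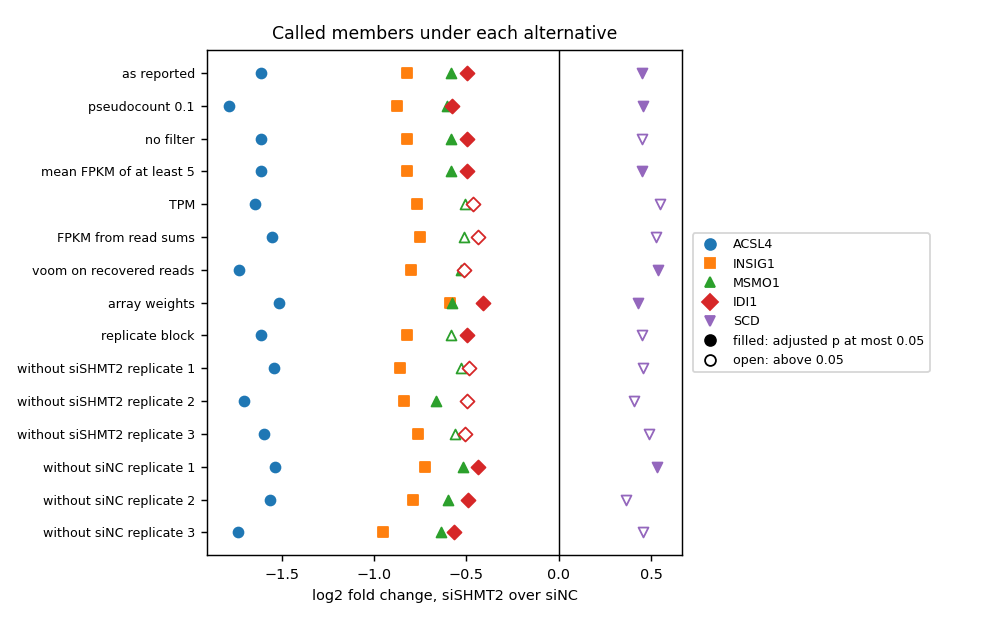
Log2 fold change (siSHMT2 over siNC) of the 5 called genes as reported and under each of 14 alternatives, filled where the adjusted p is at most 0.05 and open above it. No gene crosses 0, and ACSL4 and INSIG1 stay filled throughout, while SCD is open in 9 of the 14.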

How the data were processed

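The authors deposited 1 table of FPKM values with gene coordinates and lengths. The submitters' processing notes name HISAT2 2.0.5 and featureCounts 1.5.0-p3, and hg18 as the build. GENCODE release 29 (GRCh38) holds 58516 of the identifiers, of which 99.9% overlapped on the same chromosome, so the table's own coordinates, which are printed, match GRCh38. Per the labels, a SMARTER mRNA-Seq kit was used. The sources used here do not give the strand setting, so overlapping and antisense genes are uncertain. FPKM times length gave whole reads (100% of values above 0, within 0.02), and the scaling totals were 0.957 to 1.13 times the read sums.

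Values were taken as log2(FPKM + 1) and tested with limma 3.58.1 (R 4.3.3, intensity trend) where the mean over the 6 libraries reached 1 FPKM. Fold changes on this scale understate low genes. All 33 genes were named; values per library were due for called genes or an absolute log2 fold change of at least 0.5. Per-library values of uncalled genes were added after they were seen. The genes, lists, words and tests were chosen with earlier results of these data known. The fit was tested on simulated reads given the same spread setting for all genes and both groups. That test therefore does not cover the wider spread of the siNC libraries, and its outcome is not reported here. Some results of the pathway lists are not reported here.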

Additional observations from a re-analysis of the deposited data

How the results depend on the processing

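ACSL4, INSIG1 and LBR were called in all 14 alternatives, and no called gene changed direction in any of them. Counts of all genes (higher and lower) were 333 and 603 with no filter, 374 and 696 with a replicate block, and 1827 and 1976 with array weights, and 618 were lower with a mean FPKM of at least 5 and 620 on TPM. Of the 33 genes, 0 were higher with no filter, on TPM, on FPKM from read sums and with the block. On TPM and on FPKM from read sums 2 were lower, and with array weights 9, with FADS1, FDFT1, INSIG2, SC5D and SCAP added. The median log2 fold change of the tested genes was 0.035 on TPM, 0.0187 on FPKM from read sums, 0.0194 with voom and -0.10 with array weights. The median of all genes was itself 0.11 on TPM, 0.08 on FPKM from read sums and 0.10 with voom. In these settings the median of the 30 genes stayed below that of all genes, though single genes lay above it. Leaving out each library in turn gave 229 to 729 genes higher and 498 to 1132 lower, 0 to 1 of the 33 higher and 2 to 7 lower, and medians of -0.13 to -0.044. With the block, the adjusted p was 0.118 for SCD, 0.0531 for MSMO1 and 0.0478 for IDI1. Libraries of the same number correlated at -0.0183, -0.349 and 0.243 in their deviations from the group means. Those of other numbers correlated at -0.483 to 0.496. With 3 libraries a group, these values cannot show whether the numbers pair the libraries. With no filter the adjusted p of SCD was 0.0948, on TPM 0.0792 and on FPKM from read sums 0.0543.

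Some uncalled genes changed sign. On TPM the log2 fold change was 0.055 for HMGCS1, 0.043 for NSDHL, 0.075 for ELOVL5 and 0.027 for FADS2. On FPKM from read sums it was 0.034 for HMGCS1, 0.027 for NSDHL, 0.054 for ELOVL5 and 0.011 for FADS2, and with voom 0.041 for HMGCS1, 0.027 for NSDHL, 0.0598 for ELOVL5 and 0.012 for FADS2. With array weights it was 0.038 for HMGCS1, -0.047 for SQLE, 0.037 for HSD17B7, -0.0090 for DHCR7 and -0.11 for ELOVL1. Without 1 library, the range was -0.21 to 0.22 for HMGCS1, -0.25 to 0.22 for SQLE, -0.26 to 0.16 for ELOVL5, -0.18 to 0.24 for TM7SF2, -0.037 to 0.089 for SREBF1, -0.087 to 0.31 for EBP and -0.11 to 0.013 for NSDHL. It was -0.16 to 0.023 for HSD17B7, -0.0060 to 0.21 for ELOVL1, -0.13 to 0.21 for ELOVL6 and -0.17 to 0.0403 for FADS2. The causes were not tested.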
